A study of Mus musculus with 10 samples.

Results

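The 8 genes described here encode bZIP transcription factors of the AP-1 network: Fos, Fosb and Fosl2 of the Fos family, Jun, Junb and Jund of the Jun family, Atf3 of the ATF family and Maff of the small Maf family. They were chosen by name, and they are 8 of 21883 protein-coding genes in the RefSeq table of GRCm38/mm10. Every listed region within 50 kb of a gene was taken. These were 106 of 58090 Gtf3c1 regions with KCl and 84 of 66622 in untreated neurons, and 28 of 4251 against 18 of 12531 Rpc155 regions. For H3K4me1 they were 147 of 193683 regions with KCl and 144 of 192225 in untreated neurons, and for H3K27ac 72 of 58124 and 63 of 65486.

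The regions came from chromatin immunoprecipitation with sequencing (ChIP-seq) on cortical neurons from C57BL/6J mice, cultured for 6 days. All cultures had spent a night in medium with serum lowered to 3%. The KCl group was then depolarised with 50 mM KCl for 45 min, and the untreated group was not. The antibodies recognised Gtf3c1, a DNA-binding part of the RNA polymerase III factor TFIIIC, Rpc155, which forms the catalytic core of that polymerase, and the histone marks H3K4me1 and H3K27ac. Each antibody has 1 region list per condition. The design text states 3 biological replicates, but the lists do not show their spread, so no difference given here has a replicate check and none has a p-value. In bulk chromatin, more cells with a region and a stronger region per cell cannot be told apart.

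AP-1 proteins bind DNA as dimers through a basic region and a leucine zipper. Fos proteins dimerise with Jun proteins, which can also pair with each other. In neurons, depolarisation opens voltage-gated calcium channels, and calcium signals that reach CREB, SRF and MEF2 switch on several of these genes within minutes as immediate-early genes. H3K4me1 marks enhancers and the flanks of promoters, and H3K27ac marks active promoters and enhancers.

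The promoters below show how differently these genes are built within 250 bases of their starts, as RefSeq gives them on GRCm38.p6. Each is written 5′ to 3′ on the strand of its gene, and all but the shorter Maff stretch end at the base before the annotated start. Capitals mark matches to TGACG, the core of the cyclic AMP response element, or to its complement, and to the MEF2 site. The Fos stretch lies at chr12:85473640-85473889 (plus strand), Junb at chr8:84978749-84978998 (minus), Jun at chr4:95052223-95052472 (minus) and Atf3 at chr1:191183334-191183583 (minus). The Maff stretch is 30 bases at chr15:79347480-79347509 (plus), just before the second of its 3 annotated starts.
Fos: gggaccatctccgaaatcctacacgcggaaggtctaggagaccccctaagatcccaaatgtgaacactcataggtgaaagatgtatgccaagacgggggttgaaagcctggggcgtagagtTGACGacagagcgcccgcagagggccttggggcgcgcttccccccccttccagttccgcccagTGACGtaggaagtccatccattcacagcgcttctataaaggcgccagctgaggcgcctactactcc
Junb: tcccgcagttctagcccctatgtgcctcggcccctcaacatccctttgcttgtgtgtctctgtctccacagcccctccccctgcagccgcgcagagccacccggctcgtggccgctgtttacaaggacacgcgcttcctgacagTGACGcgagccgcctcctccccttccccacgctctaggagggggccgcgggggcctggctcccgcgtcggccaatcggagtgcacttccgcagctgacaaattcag
Jun: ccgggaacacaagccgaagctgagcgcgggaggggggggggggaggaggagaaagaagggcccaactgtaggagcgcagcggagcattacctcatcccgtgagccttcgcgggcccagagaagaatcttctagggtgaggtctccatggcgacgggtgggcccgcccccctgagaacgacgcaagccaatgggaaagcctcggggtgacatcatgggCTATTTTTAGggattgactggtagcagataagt
Atf3: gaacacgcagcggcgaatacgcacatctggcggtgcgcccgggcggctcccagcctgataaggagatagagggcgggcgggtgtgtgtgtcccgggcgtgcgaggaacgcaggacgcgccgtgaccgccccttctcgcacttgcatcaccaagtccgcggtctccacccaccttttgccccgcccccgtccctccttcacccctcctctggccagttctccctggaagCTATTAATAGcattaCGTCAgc
Maff: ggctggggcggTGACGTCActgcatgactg

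Motifs were searched on both strands from 250 bases before to 50 bases after each start, counting the first transcribed base as +1. TGACG, added after the promoters were seen, was found at Fos (bases −129 and −66), Fosb (−60), Junb (−106), Atf3 (−7, opposite strand) and the second Maff promoter and the one after it. The start of Fosb in the promoter table lies just inside the gene as annotated. It is a common word, present in 20.8% of all 32851 promoters. The whole element TGACGTCA, which contains TGACG on both strands, was found at the second Maff promoter alone (−29), against 1.79% of all promoters. MEF2 sites were found at Jun (−33) and Atf3 (−22), against 3.19% of all promoters. TGACTCA, the AP-1 site itself, was matched in none of the 10 promoters of the 8 genes (5.20% of all), nor was the CArG box (1.63%) or GTTCGANNC, the core of the TFIIIC B box (0.843%). Fosl2, Jund and the first Maff promoter held none of these motifs. A match or its absence describes these letters in this window only.

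Across the whole series, the KCl list held fewer regions than the untreated list for Gtf3c1 (0.872 of the number), Rpc155 (0.339) and H3K27ac (0.888), and about as many for H3K4me1 (1.01). The lists hold no read counts, so depth is not known from them. H3K27ac lay within 1 kb of 12 of 12 neuronal marker genes in both conditions. It lay near 5 of 6 astrocyte markers in each condition, with Gja1 in the KCl list alone and Aldh1l1 in the untreated list alone. In both conditions it lay near 2 of 6 oligodendrocyte lineage markers (Mbp and Mog) and 2 of 5 endothelial markers, but near no microglial marker among 6. The neural progenitor markers differed, with 5 of 5 acetylated with KCl (summed fold enrichment 24.6) and 2 of 5 in untreated neurons (5.71); Nes, Pax6 and Eomes were listed with KCl only.

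The first comparison asked how much of each gene TFIIIC covered. Gtf3c1 covered a larger share of all 8 genes with KCl, and the difference reached 10 percentage points in 7 of them. Over all protein-coding genes 4.08% had such a difference, and 682 did among 5673 genes of similar length (1840 to 21369 bp) that had H3K27ac within 5 kb in both conditions. The median share of the 8 genes was 97.8% with KCl and 14.8% in untreated neurons, where the means over all protein-coding genes were 4.88% and 4.21%. Atf3 was the exception.

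**Figure D1:**
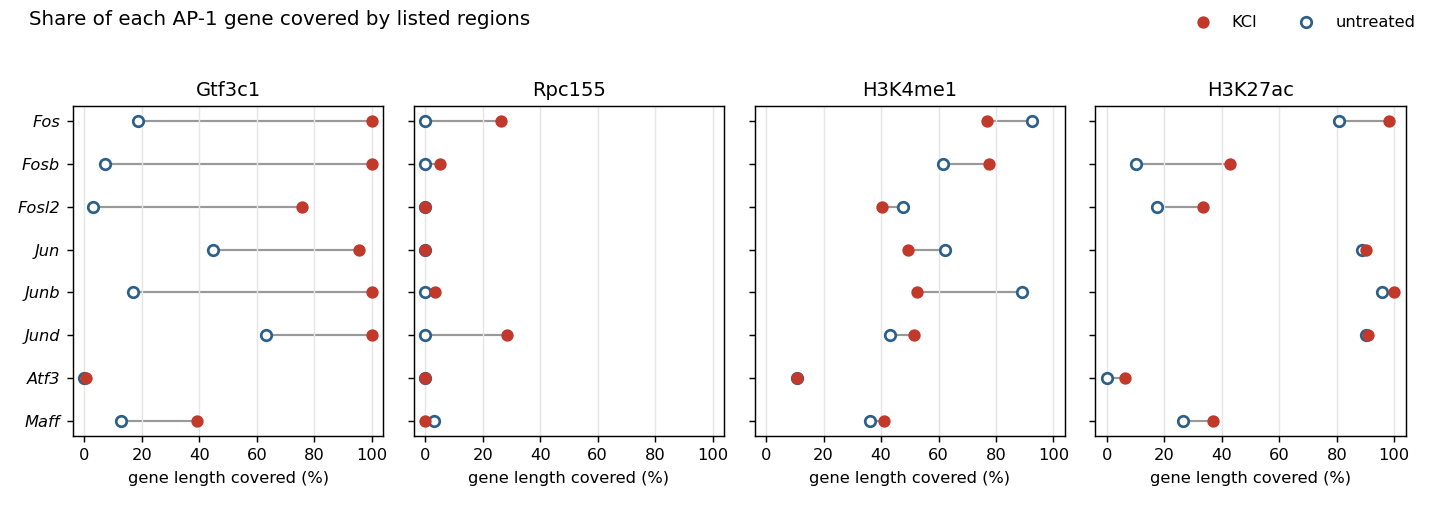
Share of the length of each of the 8 genes that lay inside listed regions (x axis, percent), for each antibody, with KCl (filled red circles) and in untreated neurons (open blue circles). Gtf3c1 covered 75.9% to 100% of the 3 Fos genes and 95.5% to 100% of the 3 Jun genes with KCl, while H3K4me1 had no common direction.

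Fos, the founding AP-1 gene and a standard reporter of neuronal activity (chromosome 12, 85473890 to 85477274, plus strand), was covered by Gtf3c1 over 100% of its length with KCl and over 18.5% in untreated neurons. With KCl a region of 6383 bp ran from 565 bp before its 5′ end to 2433 bp past its 3′ end, and it was number 23 of the 58090 KCl regions by length. The longest untreated region over Fos had 895 bp and lay at the start of the gene.

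Fosb, whose transcript is spliced into full-length FosB and the long-lived truncated ΔFosB (chromosome 7, 19302696 to 19310118, minus strand), had 100% Gtf3c1 cover with KCl and 7.07% in untreated neurons. Its difference of 92.9 percentage points was the largest of the 8 and number 14 of 21883. The KCl region had 10348 bp and was number 5 of its list by length. The untreated list had 1 region of 525 bp inside the gene, with a fold enrichment of 3.04. Fold enrichment is the peak caller's ratio of the summit to its local background, and it is the authors' value throughout.

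Fosl2, which encodes Fra-2 (chromosome 5, 32136472 to 32157840, plus strand), is the longest of the 8, with 21369 bp. Gtf3c1 covered 75.9% of it with KCl and 3.14% in untreated neurons. The cover was broken into 12 regions with KCl, of which the longest had 3869 bp and spanned the start, against 2 regions in untreated neurons. All 3 Fos genes were thus covered far into their bodies with KCl and over at most 18.5% of their length in untreated neurons.

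Jun, the partner of Fos in the classical AP-1 dimer and a target of JNK (chromosome 4, 95049036 to 95052222, minus strand), had 95.5% Gtf3c1 cover with KCl and 44.6% in untreated neurons. A KCl region of 4597 bp stood where the untreated list had 3 pieces over the gene, with fold enrichments of 3.58 to 4.66. Junb, a Jun protein with weaker activation of many AP-1 targets (chromosome 8, 84976909 to 84978748, minus strand), had 100% with KCl and 17.0% in untreated neurons. Its KCl region of 6895 bp reached 1917 bp before and 3138 bp past the gene. Jund, the Jun gene with the broadest basal expression (chromosome 8, 70697739 to 70700616, plus strand), had 100% with KCl and 63.3% in untreated neurons. It had the largest untreated share of the 8 genes, in 2 regions that left its start free, and the KCl region of 6090 bp began 121 bp before that start.

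Maff, a small Maf gene without a transactivation domain of its own (chromosome 15, 79346621 to 79359078, plus strand), had 39.2% Gtf3c1 cover with KCl and 12.7% in untreated neurons. There were 9 regions over it with KCl, none longer than 1320 bp, and 3 in untreated neurons. At a q of 1e-05 or lower the share was 25.9% with KCl and the difference between conditions was 15.0 percentage points. Atf3, a stress-induced gene whose product binds cyclic AMP response elements (chromosome 1, 191170296 to 191183333, minus strand), had 0.430% with KCl and 0% in untreated neurons. Its KCl region of 566 bp sat on the promoter printed above and reached only just into the gene.

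**Figure D2:**
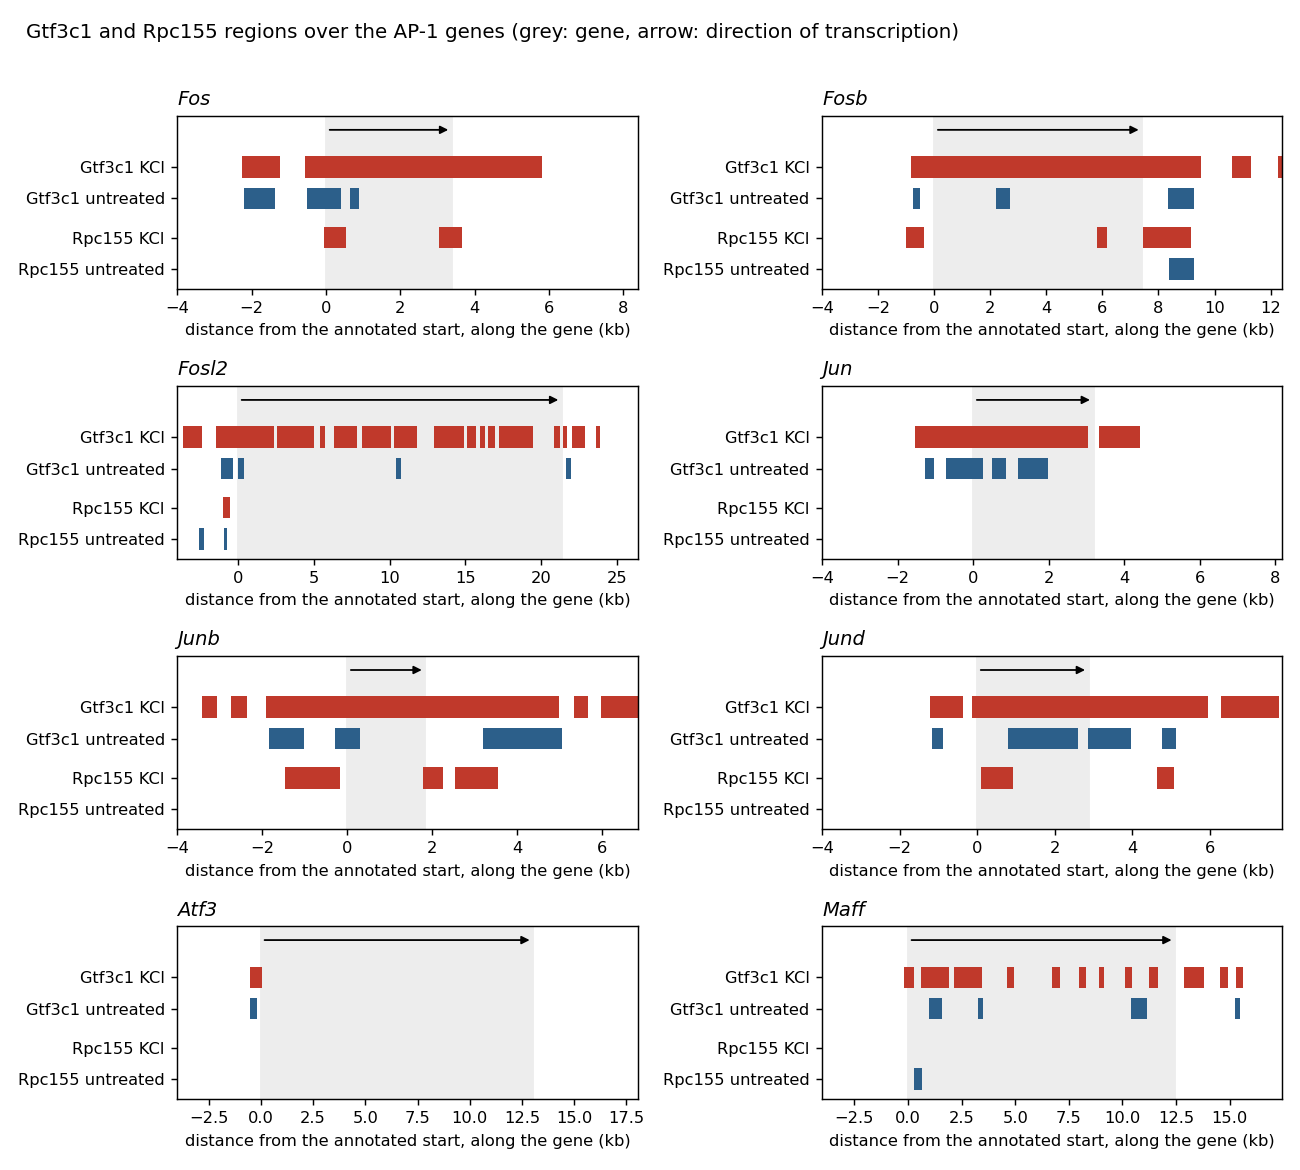
Gtf3c1 and Rpc155 regions along each gene, with distance from the annotated start in kb on the x axis, KCl regions in red above untreated regions in blue, and the gene in grey. At Fos, Fosb, Junb and Jund 1 Gtf3c1 region ran over the whole gene with KCl, while at Atf3 both conditions had a region at the start only.

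**Figure D3:**
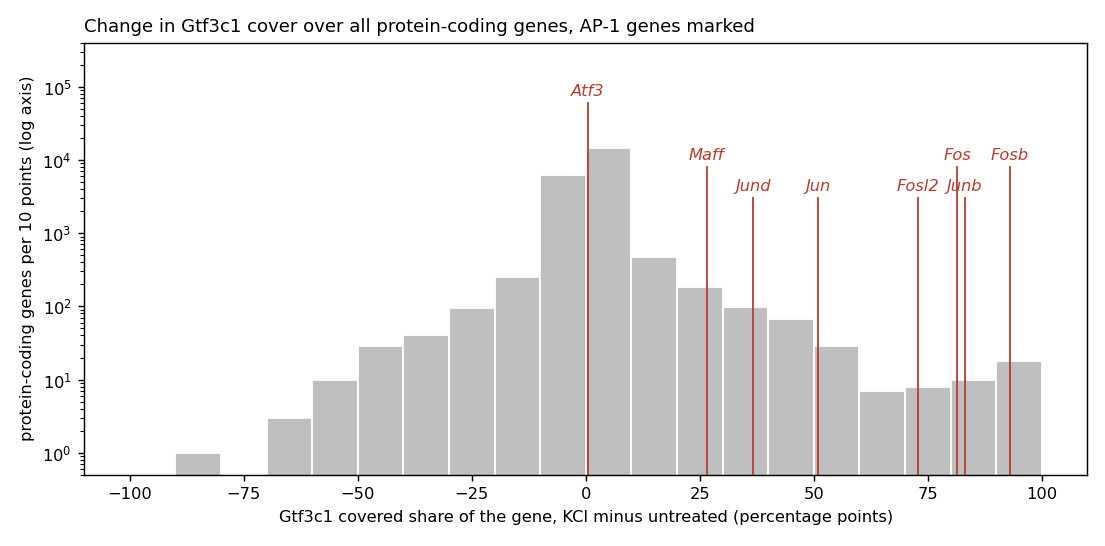
Number of protein-coding genes (y axis, log scale) by difference in Gtf3c1 cover, KCl minus untreated, in bins of 10 percentage points, with the 8 genes marked. Atf3 stands among the bulk of genes at 0.430 and the other 7 lie between 26.5 and 92.9 percentage points.

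Height of the strongest region within 5 kb was compared next. Gtf3c1 was at least 1.5 times higher with KCl at 6 of the 8 genes, against 12.6% of the 11849 protein-coding genes with a region in both lists. The median ratio of the 8 was 1.76, and that of all such genes 1.04. Jun differed most, with 11.5 with KCl and 4.66 in untreated neurons, a ratio of 2.47. Fosb had 12.9 and 6.80, Junb 14.9 and 8.07, Jund 12.9 and 7.52, and Maff 8.07 and 4.48 with KCl and in untreated neurons. Atf3 had 4.31 with KCl and 2.84 in untreated neurons, a ratio of 1.52, so its promoter region was higher although hardly wider within the gene.

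Fos and Fosl2 did not reach that ratio. At Fos the strongest region had a fold enrichment of 15.6 with KCl and 14.7 in untreated neurons, a ratio of 1.06. The promoter printed above was fully covered in both conditions. The strongest regions at Fos were thus nearly level in height and differed in length. Their summits lay at different positions, 281 bases from the annotated start with KCl and −188 in untreated neurons. The untreated region with its summit inside the gene had 2.87. At Fosl2 the values were 13.3 with KCl and 9.11 in untreated neurons, a ratio of 1.46, and both summits lay before the gene. Among regions that touched the gene, the strongest untreated one had 3.76 at Fosl2, 3.04 at Fosb and 3.95 at Junb. The ratios were 3.53, 4.24 and 3.77. That of Fosl2 sets a KCl summit before the gene against an untreated summit inside it. The strongest KCl region with its summit inside Fosl2 had 6.28. No untreated Gtf3c1 region touched the promoter window of Fosb or Jund, while a KCl region covered 100% of it at Fosb and 57% at Jund. Both KCl regions had 12.9, which is a summit value. The summit at Fosb lay 2886 bases past the annotated start, inside the gene.

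**Figure D4:**
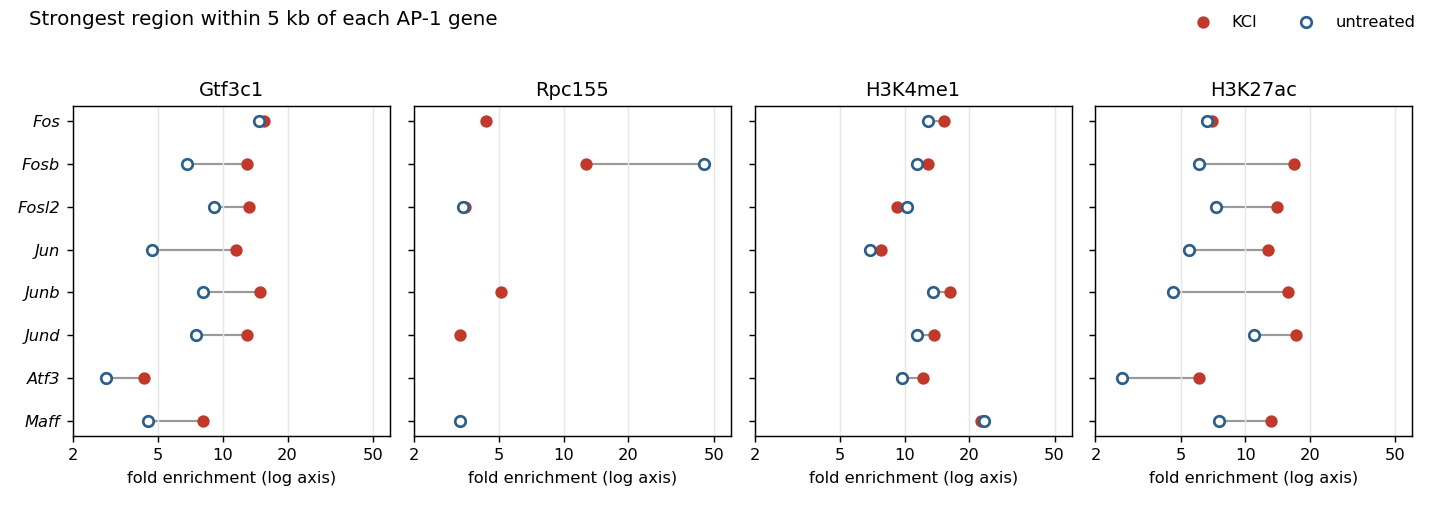
Fold enrichment of the strongest region within 5 kb of each gene (x axis, log scale), by antibody, with KCl (filled red circles) and in untreated neurons (open blue circles). A missing circle means no listed region; the Rpc155 point of Fosb at 44.8 in untreated neurons stands apart from all others.

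RNA polymerase III was compared in the same way. An Rpc155 region lay within 5 kb of 5 of the 8 genes with KCl and of 3 in untreated neurons (3187 and 7351 of all protein-coding genes). Fos, Junb and Jund had one in the KCl list alone, a class that held 3.52% of all protein-coding genes. Maff had one in the untreated list alone, a class that held 22.6%. Fosb and Fosl2 had one in both, and Jun and Atf3 in neither.

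Within the genes, Rpc155 covered 26.5% of Fos and 28.6% of Jund with KCl and 0% of both in untreated neurons. These 2 of 8 reached 10 percentage points, which 0.21% of protein-coding genes did, and they were numbers 14 and 10 of 21883. At a q of 1e-05 or lower the Fos share was 10.3% with KCl, and no Rpc155 region over Jund was left. At Fos the KCl regions sat at both ends of the gene. At Jund 1 region lay 93 to 914 bases past the start, with a fold enrichment of 3.27. The Fosb share was 5.15% with KCl and that of Junb 3.48%, and neither was covered in untreated neurons. At Maff the share was 0% with KCl and 2.93% in untreated neurons. These were low regions: the strongest within 5 kb with KCl had 4.36 at Fos, 5.09 at Junb and 3.27 at Jund.

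Fosb was different. Past its 3′ end the untreated list had an Rpc155 region of 892 bp with a fold enrichment of 44.8 (chromosome 7, 19300862 to 19301753), at the place of the strongest untreated Gtf3c1 region, 6.80. The KCl list had a region of 1732 bp with 12.7 there, a ratio of 0.284. This region was singled out after its values were seen. Of 197 Rpc155 places with a fold enrichment of 20 or more in either list, all had a region in both, and their median ratio was 0.966. The ratio at Fosb was the lowest, and the highest was 5.17. A predicted gene, Gm26802, lay 69 bp away.

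H3K27ac covered a larger share of all 8 genes with KCl. The difference reached 10 percentage points in 4 of them, against 7.27% of protein-coding genes and 21.5% of the 5673 similar genes. Fosb had 43.0% with KCl and 10.1% in untreated neurons, Fos 98.3% and 80.6%, Fosl2 33.4% and 17.3%, and Maff 36.8% and 26.3%. The 3 Jun genes were near full cover in both conditions, with 90.3% to 100% with KCl and 88.9% to 95.8% in untreated neurons. Their differences were small, with 0.591 percentage points at Jund, 1.41 at Jun and 4.24 at Junb. With regions joined across 500 bp the difference was 0 at Junb and Jund, and 6 of the 8 genes had a larger share. Atf3 had 6.27% with KCl and 0% in untreated neurons.

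Heights of acetylation were set side by side next. The strongest H3K27ac region within 5 kb was at least 1.5 times higher with KCl at 7 of the 8 genes, but so it was at 36.3% of 13481 protein-coding genes. The median ratio was 2.10 for the 8 genes and 1.37 for all. Junb stood highest, with 15.8 with KCl and 4.57 in untreated neurons, and its ratio of 3.46 was number 13 of 13481. In untreated neurons the promoter of Junb printed above carried no H3K27ac region, while with KCl a region of 17229 bp covered it and reached 13021 bp before the 5′ end, onto the neighbouring gene Hook2. Fosb had 16.9 with KCl and 6.09 in untreated neurons, Jun 12.7 and 5.46, and Fosl2 14.0 and 7.27. Jund had 17.2 with KCl and 10.9 in untreated neurons, Maff 13.1 and 7.57, and Atf3 6.08 and 2.67. Over Maff itself the strongest untreated region had 4.19. Fos alone was nearly level in height, at 7.01 with KCl and 6.60 in untreated neurons. The progenitor markers named above also had more acetylation with KCl, and the part of other cell types in these values was not tested.

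H3K4me1 had no common direction. Its share was larger with KCl in 4 genes and smaller in 4. Fosb had 77.7% with KCl and 61.5% in untreated neurons, the 1 gene at least 10 percentage points higher, as were 2.94% of protein-coding genes. Fos had 76.9% with KCl and 92.7% in untreated neurons, Jun 49.4% and 62.2%, and Junb 52.6% and 89.0%. These 3 were at least 10 percentage points lower, as were 1.21% of protein-coding genes, and Junb, with a difference of −36.4, was number 21864 of 21883. The other 4 differed by −7.10 percentage points at Fosl2, 8.20 at Jund, 4.99 at Maff and 0.153 at Atf3.

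Part of the difference lay at the start of the gene. H3K4me1 covered 0% of the promoter window of Fos with KCl and 100% in untreated neurons, and 0% against 96.3% at Fosl2. At Junb the order was the other way, with 100% of the window with KCl and 66.0% in untreated neurons, and the stretches without H3K4me1 with KCl lay inside the gene. Heights hardly differed: the strongest H3K4me1 region reached the ratio of 1.5 at 0 of the 8 genes, against 5.37% of 16763 protein-coding genes. The values lay between 7.77 at Jun and 22.8 at Maff with KCl, and between 6.93 at Jun and 23.5 at Maff in untreated neurons.

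Distal regions, those within 50 kb but more than 1 kb from the gene, came next. For Gtf3c1 there were 74 with KCl and 64 in untreated neurons, a ratio of 1.16 where the whole lists had 0.872. Of these, 38 of the KCl regions and 14 of the untreated regions met none of the other condition, where 48.9% of all KCl and 54.4% of all untreated Gtf3c1 regions did. The untreated share was thus the one that departed from its whole list. H3K27ac had 57 distal regions with KCl and 47 in untreated neurons, and 31 with KCl against 3 in untreated neurons stood alone. In the whole H3K27ac lists 31.9% of KCl and 37.3% of untreated regions stood alone. Rpc155 had 18 with KCl and 15 in untreated neurons, of which 8 and 6 stood alone, against 48.1% and 82.4% of the whole lists. H3K4me1 had 114 with KCl and 112 in untreated neurons, of which 24 and 21 did, near the 21.5% and 18.3% of the whole lists. The H3K4me1 landscape around these genes was thus listed almost equally in both conditions.

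Distal cover counted all listed bases within 50 kb but over 1 kb from the gene. It thus includes the outer parts of regions that lie over the gene. For H3K27ac it summed to 167 kb with KCl and 75.6 kb in untreated neurons, and the distal regions alone to 139 kb and 67.1 kb. Distal H3K27ac cover was at least 1.5 times larger with KCl at 6 of the 8 genes, against 37.4% of 15172 protein-coding genes. The median ratio was 2.01 against 1.35. By distal regions alone Junb had 22.1 kb with KCl and 18.9 kb in untreated neurons, and Atf3 3.26 kb and 2.34 kb, both below that ratio. Fos led with 52.8 kb with KCl and 14.8 kb in untreated neurons, a ratio of 3.57 and number 313 of 15172. Fosb had 38.1 kb and 16.6 kb, Junb 35.0 kb and 19.6 kb, Jund 11.8 kb and 4.98 kb, Fosl2 10.2 kb and 5.40 kb, and Atf3 4.98 kb and 2.34 kb. Maff had 13.5 kb with KCl and 11.1 kb in untreated neurons, and Jun 0.773 kb and 0.794 kb, so these genes stayed below the ratio.

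Distal cover by Gtf3c1 summed to 77.2 kb with KCl and 39.2 kb in untreated neurons. Its ratio also reached 1.5 at 6 of 8 genes, against 23.5% of 14097 protein-coding genes, with a median ratio of 1.68 against 1.01. The distal Gtf3c1 regions alone summed to 69.2 kb with KCl and 40.0 kb in untreated neurons. By these regions Jun had 0 kb with KCl and 0.509 kb in untreated neurons, and Junb 24.1 kb and 18.6 kb. Both then fell below the ratio. Fosl2 had 1.56 kb with KCl and 0 kb in untreated neurons by these regions, so no ratio could be taken. By all listed distal bases Fosl2 had 2.54 kb and 0.139 kb, so its ratio rested on a small untreated value. Most of the distal Gtf3c1 cover lay around Junb, with 25.6 kb with KCl and 17.0 kb in untreated neurons, and Fosb, with 21.3 kb and 8.91 kb. Jund had 11.1 kb with KCl and 1.79 kb in untreated neurons, Fos 9.81 kb and 5.29 kb, and Jun 0.771 kb and 0.509 kb. Below the ratio were Atf3, with 1.03 kb with KCl and 0.695 kb in untreated neurons, and Maff, with 5.04 kb and 4.87 kb. Junb has 8 other protein-coding genes within 50 kb, Fosb 7 and Jund 5, while Fos, Fosl2 and Jun have none, so the distal regions of the first 3 can belong to the promoters of other genes.

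Distal acetylated places were taken as joined H3K27ac regions of both conditions that lay outside the gene and its 1 kb flanks and overlapped H3K4me1 in either condition. There were 41 such places, of which 19 lay more than 1 kb from the ends of all other annotated genes (8 of the 25 acetylated in both lists). They were acetylated in the KCl list alone at 15, in the untreated list alone at 1, which lay past the 3′ end of Jun, and in both at 25. The genome-wide background was all 68892 joined H3K27ac regions with H3K4me1. It had no distance rule, so places at promoters and inside genes are included. Its places were not matched in length to the 41. Of these, 21.6% were acetylated in the KCl list alone and 27.9% in the untreated list alone. Of the 15 distal places of the KCl list alone, 11 carried H3K4me1 in untreated neurons, a smaller share than the 93% of the genome-wide places of that class. Among the 25 distal places in both lists, the strongest H3K27ac region was at least 1.5 times higher with KCl at 13, against 16.1% of 34839 genome-wide places. It was higher at all at 24, against 59% of those places.

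**Figure D5:**
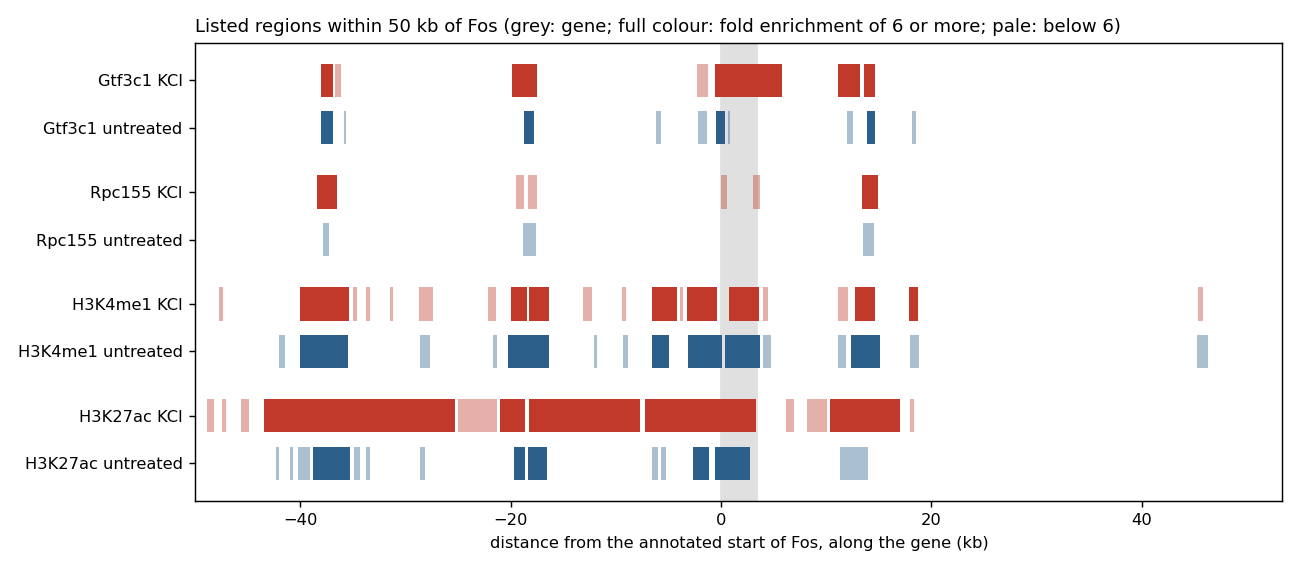
Listed regions within 50 kb of Fos for the 4 antibodies, with distance from the annotated start in kb on the x axis, KCl in red and untreated in blue, pale where the fold enrichment is under 6, and the gene in grey. Gtf3c1 and Rpc155 shared 3 distal places in both conditions, while H3K27ac covered 52.8 kb of the flanks with KCl and 14.8 kb in untreated neurons.

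Fos had 7 of these places, and it has no other protein-coding gene within 50 kb. The strongest Gtf3c1 signal lay in a place 25311 bp before its 5′ end (chromosome 12, 85430420 to 85448579), which also holds ends of predicted genes, with fold enrichments of 25.1 with KCl and 17.7 in untreated neurons. Rpc155 had 7.81 and 5.26 there, and H3K27ac 13.9 and 10.5. A pair of adjoining places nearer the gene, from 85452895 to 85455241 and from 85455570 to 85466184, shared a Gtf3c1 region of 19.4 with KCl, its summit between them, and one of 8.16 in untreated neurons. H3K27ac at the farther of them was 14.0 with KCl and 6.98 in untreated neurons, and their H3K27ac ratios were 2.01 and 1.86. Past the 3′ end (85484246 to 85490931), Gtf3c1 had 11.7 with KCl and 10.2 in untreated neurons, but H3K27ac had 11.9 and 5.46. All 4 thus overlapped regions of TFIIIC and RNA polymerase III in untreated neurons too.

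Fosb had 10 places. The highest Gtf3c1 signal, 21.3 with KCl and 12.9 in untreated neurons, lay at 19358453 to 19361724 on chromosome 7, next to the ends of Cd3eap and Ppp1r13l, and H3K27ac there was 7.43 and 7.36. The place at 19331175 to 19336238, away from other gene ends, had Gtf3c1 at 15.1 with KCl and 12.9 in untreated neurons and Rpc155 at 6.90 and 4.07. At 19340878 to 19346218, next to an end of the DNA repair gene Ercc1, Gtf3c1 had 10.0 with KCl and 4.33 in untreated neurons. A place 5834 bp before the 5′ end (19315952 to 19321947) had Gtf3c1 at 9.51 and Rpc155 at 3.63 with KCl and neither in untreated neurons. H3K27ac there was 11.8 with KCl and 5.59 in untreated neurons.

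Junb had 7 places on chromosome 8. The strongest Gtf3c1 summit lay in the place from 85024299 to 85029245, near Get3 and Trir, with 14.5 with KCl and 10.6 in untreated neurons. In the place from 84967282 to 84974213, near the ends of Rnaseh2a and Prdx2, the strongest Gtf3c1 summit had 13.5 with KCl and 10.2 in untreated neurons. The KCl region of 14.9 over Junb itself also reached the edge of that place. Another, 84933769 to 84937755, was nearly level, with Gtf3c1 at 6.64 with KCl and 7.34 in untreated neurons and H3K27ac at 11.6 and 11.7. The highest acetylation ratio of the 25 places, 2.95, belonged to 84965181 to 84966035, with H3K27ac at 8.24 with KCl and 2.80 in untreated neurons. Jund had 6 places, of which the strongest in Gtf3c1, 70672149 to 70674680 near Lsm4, had 4.31 with KCl and 3.94 in untreated neurons. Its other places with Gtf3c1, 70682981 to 70686611 and 70743803 to 70744916, had 3.41 and 2.71 with KCl and no Gtf3c1 region in untreated neurons.

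The remaining genes had fewer. Maff had 5, led by 79400909 to 79404763 on chromosome 15 near Tmem184b, with Gtf3c1 at 5.02 with KCl and 4.66 in untreated neurons. Gtf3c1 had 3.41 with KCl and 4.66 in untreated neurons at 79379332 to 79382521, and 4.19 and 3.22 at 79325594 to 79328797, so the order of the conditions differed among the places of Maff. Atf3 had 1, at 191222911 to 191226174 on chromosome 1, with Gtf3c1 at 6.46 with KCl and 3.56 in untreated neurons and H3K27ac at 10.8 and 7.53. Fosl2 had 4 and Jun 1, none with Gtf3c1 or Rpc155 in either condition.

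Gtf3c1 was present at 25 of 40 places acetylated with KCl (62.5%, exact binomial 95% interval 45.8 to 77.3) and at 19 of 26 acetylated in untreated neurons (73.1%, 52.2 to 88.4). Over all genome-wide places, those at genes included, the shares were 42.7% with KCl and 46.9% in untreated neurons. Rpc155 was present at 12 of 40 with KCl (30.0%, 16.6 to 46.5) and at 13 of 26 in untreated neurons (50.0%, 29.9 to 70.1), against 6.93% and 17.4% over all places. These intervals cover counting error only and treat places as independent, which places around the same gene are not. As 25 places were acetylated in both conditions, the intervals cannot be used to compare the conditions. At the 19 places with Gtf3c1 in both lists the median ratio was 1.42, and 17 were above 1. Over the 15933 genome-wide places with Gtf3c1 and H3K27ac in both lists, those at genes included, the median was 1.00 and 52.8% were above 1.

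The genes nearest to the median cover profile of the 8, over the 4 antibodies and 2 conditions, were Dhps, Mea1, Ss18l2, Pold4 and Srf, at Euclidean distances of 32.3 to 39.6 percentage points. The 8 genes themselves lay 52.6 to 140 from that median, Atf3 farthest. Srf, which encodes a regulator of Fos, had Gtf3c1 cover of 74.8% with KCl and 34.7% in untreated neurons.

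Other bZIP genes and regulators of AP-1 had fewer such differences. Of 23 further Fos, Jun, ATF, Maf and Batf relatives, 4 had Gtf3c1 cover at least 10 percentage points higher with KCl and 0 lower, with a median difference of 0. They were Mafk (27.8% with KCl and 16.6% in untreated neurons), Nfe2l1 (25.6% and 14.0%), Atf5 (20.5% and 7.81%) and Fosl1, which encodes Fra-1 (17.3% and 4.66%). H3K27ac cover was also at least 10 percentage points higher at 3 of these 4, with 40.9% with KCl and 24.1% in untreated neurons at Mafk, 62.4% and 35.4% at Nfe2l1, and 37.9% and 8.36% at Atf5. Atf4, the stress-response factor gene, was covered by Gtf3c1 over 100% in both conditions. Rpc155 covered 0% of Atf4 with KCl and 21.2% in untreated neurons.

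Of 29 regulators, 3 had higher Gtf3c1 cover by that measure and 1 lower. Besides Srf the higher ones were Mef2d, a calcium-responsive MEF2 gene (42.2% with KCl and 16.7% in untreated neurons), and Hdac5, a deacetylase that represses MEF2 (47.1% and 24.9%). The same 3 genes, and no other regulator, had H3K27ac cover at least 10 percentage points higher. Mapk3, which encodes ERK1, had 16.0% Gtf3c1 cover with KCl and 32.8% in untreated neurons. An Rpc155 region lay within 5 kb of 11 regulators with KCl and of 22 in untreated neurons, where all protein-coding genes had 3187 and 7351.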

How the data were processed

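The files are 8 region lists (narrowPeak), 1 for each of 4 antibodies and 2 conditions. Per the submitters' processing notes, Bowtie2 and MACS2 were used on GRCm38/mm10. Tool versions, and any pooling of replicates, are not stated in the sources at hand. The authors' fold enrichment is a linear ratio of summit to local background. Each −log10 p and −log10 q in the deposited lists is the peak caller's, and the lowest −log10 q per list was 1.30 to 1.46. The score that the authors deposited is 10 times that −log10 q without its decimals. Input libraries were not analysed here.

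Autosomal, X and Y regions were kept, with 1-based positions. Genes and promoters came from RefSeq tables of the same build. The covered share is the part of a gene inside listed regions. A difference was counted at 10 percentage points, a ratio of fold enrichments at 1.5, and regions overlapped with 1 bp in common. The ratio was taken between genes with a region in both lists and was not adjusted between libraries. All 8 genes were taken in each comparison, but not every value is printed. For each gene, the places with the 3 highest Gtf3c1 values were named. Further places, as at Fos, Fosb and Junb, were named outside that rule. The 5 nearest genes by cover were named among genes of at least 1000 bp. The members and gene lists were chosen with earlier results of these data known. The similar genes, the distal cover, the region lengths, the TGACG search, the shares over all acetylated places and the look at the Rpc155 region past Fosb were added after seeing the data. The overlap and cover code was tested on simulated regions. Python 3.11.15, pandas 2.3.3, numpy 2.4.6, scipy 1.17.1 and matplotlib 3.10.9 were used. Alternatives were a q of 1e-05 or lower, equal numbers of regions, other windows and distances, and regions joined across 500 bp. Some gene results are not reported here.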

Additional observations from a re-analysis of the deposited data

How the results depend on the processing

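No paired analysis was possible because each antibody has 1 list per condition. The counts of genes with larger Gtf3c1 or H3K27ac cover (8 each) and with Gtf3c1 or H3K27ac at least 1.5 times higher (6 and 7) stayed within 1.5 times under every alternative run. The H3K27ac cover count was 6 with regions joined across 500 bp, where Junb and Jund had a difference of 0. The cause of the changes below was not tested.

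With a q of 1e-05 or lower, Rpc155 cover was larger at 1 gene and its median difference was 0. Rpc155 then lay near 3 genes with KCl and 1 in untreated neurons, and its median log2 ratio was −1.82. Distal counts were 44 with KCl and 29 in untreated neurons for Gtf3c1, 10 and 6 for Rpc155, and 31 in untreated neurons for H3K27ac. Places of the KCl list alone were 7 and of the untreated list alone 0. The H3K4me1 median cover difference, −3.48 percentage points as reported, was −0.60, and −0.72 with 1 kb added to each gene. Rpc155's was 8.90 with that kb added. Joining across 500 bp turned the H3K4me1 difference to 2.57 and gave 8 places of the KCl list alone.

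With equal numbers of regions, Rpc155 lay near 1 gene in untreated neurons, its distal count there was 7, its median log2 ratio −1.82, its distal log2 ratio 1.36 (0.26 as reported), and its untreated share of places 28.0%; places of the untreated list alone were 0. At a fold enrichment of at least 6, genes nearby in untreated neurons were 5 for Gtf3c1 and 5 for H3K27ac, and for Rpc155 1 in each condition.

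Within 25 kb, distal counts with KCl and in untreated neurons were 47 and 36 for Gtf3c1, 59 and 62 for H3K4me1, whose log2 ratio turned to −0.072, and 36 and 25 for H3K27ac. Places were 9 in the KCl list alone, 0 in the untreated alone and 15 in both. Within 100 kb, distal counts were 141 and 123 for Gtf3c1, 216 and 210 for H3K4me1, 120 and 90 for H3K27ac, and 29 in untreated neurons for Rpc155, whose log2 ratio turned to −0.33. Places were 38, 8 and 53, and 16.5% of those acetylated with KCl had Rpc155. Where Gtf3c1 and Rpc155 regions had to have their summit inside the place, an alternative chosen after seeing the data, Gtf3c1 was at 23 of the places acetylated with KCl and 18 in untreated neurons, and Rpc155 at 12 and 12. With summits over 1 kb from every gene end, distal counts were 48 and 40 for Gtf3c1, 11 and 7 for Rpc155, and 37 and 30 for H3K27ac.

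Depth is not known from the lists, so a region missing from a list was not detectable at that depth and threshold. The motif search at distal summits was not run.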

Other observations

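The longest listed regions over the genes ordered them differently from their heights. For H3K27ac, Junb had 17229 bp with KCl and 2830 bp in untreated neurons, Fosl2 11279 bp and 7837 bp, and Fos 10588 bp and 3337 bp. At Jun the region was 2877 bp with KCl and 2832 bp in untreated neurons, and at Jund 3194 bp and 2780 bp, although both were higher with KCl. The second Maff promoter, which holds TGACGTCA, lay over 100% of its window inside a Gtf3c1 region of 8.07 with KCl. It met no Gtf3c1 region in untreated neurons. The H3K27ac regions over it had 13.1 with KCl and 4.19 in untreated neurons. These are summit values of whole regions, and the summits need not lie in the window.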
